A study of Mus musculus with 6 samples.

Results

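The nuclear receptor family is described here in cultured mouse Sertoli cells with and without PA1, a protein of the MLL3/MLL4 histone methyltransferase complex. Members were taken by gene symbol among protein-coding genes: the NR1 to NR6 receptors with their common names (the thyroid hormone, retinoic acid, retinoid X, estrogen and estrogen-related receptors, the PPARs and RORs), together with Vdr, Pgr, Hnf4a and Hnf4g. Nr5a1, Nr4a1, Nr1d1 and Nr1d2 were left out by the rule, the NR0B genes lie outside it, and Hnf4g was not analysed here. This gave 39 of the 28262 genes in the table, of which 38 are receptors and 1, Nr2c2ap, is a receptor-associated protein that shares the symbol pattern. The study sequenced total RNA of Sertoli cells purified from testes of 20-day-old C57BL/6 mice, with 3 libraries from Pa1F/F animals, which carry the floxed allele without Cre, and 3 from Pa1-/- animals, in which Amh-cre deletes Pa1 in Sertoli cells. The cells of both genotypes were kept at 34 °C in 5% CO2, and no treatment beyond culture was named. By the methods, the culture medium held insulin, epidermal growth factor and transferrin. The methods call the replicates biological, but which libraries came from which animals was not given. Each p-value below sets the genotype difference against the spread of these 6 samples within their genotypes.

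Nuclear receptors are transcription factors that bind DNA as monomers, homodimers or heterodimers, many of them with an RXR, and most are switched by a small lipid-soluble ligand. Without ligand, many recruit corepressors with histone deacetylases, and with ligand they exchange these for coactivators with acetyltransferase or methyltransferase activity. In the postnatal testis, thyroid hormone acts on Sertoli cell maturation, retinoic acid is needed for spermatogenesis, and the retinoid and lipid receptors take part in the metabolism of the Sertoli cell. NR4A genes respond to signals rapidly and without a known ligand.

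The libraries held between 13203757 and 16231443 counted reads, and 14919 genes passed the filter on low counts. The genotypes were separated along the first principal component (67.2% of variance). Within each genotype 1 library stood apart, namely Pa1F/F replicate 2 and Pa1-/- replicate 3, while the remaining libraries of each genotype lay close together. Pa1 itself was not analysed here, so the genotypes rest on the labels. Of 16 Sertoli cell markers 15 passed the filter, and Rhox5, with at most 16 counts in a library, did not. The markers had a summed level of 20977 to 22058 CPM (counts scaled to equal library size) in Pa1F/F and 13461 to 17716 in Pa1-/- cells. Of 15 tested markers 5 were lower and 1 higher, against 17.1% and 18.2% of all tested genes. The same shares stand beside every marker count here and below. Clu alone made up most of the Pa1F/F sum, and the other markers summed to 7910 to 8921 CPM in Pa1F/F and 6286 to 7782 CPM in Pa1-/- cells. Markers of other testis cells moved with genotype too. The summed CPM of the 8 Leydig cell markers ran from 837 to 931 in Pa1F/F and from 177 to 332 in Pa1-/- cells, with 3 of 4 tested markers lower (335 to 365 and 39.9 to 77.1 CPM without Star) and the defining markers Cyp17a1 and Insl3 at no more than 3 counts in any library. For the 12 macrophage markers it ran from 129 to 141 and from 76.9 to 94.7, with 7 of 9 tested markers lower. Most of the Pa1-/- sum was Mrc1, which did not pass the test; the other 11 markers summed to 61.3 to 74.1 CPM in Pa1F/F and 11.3 to 13.7 CPM in Pa1-/- cells. Mesothelial markers were low but higher in Pa1-/- cells, at 26.4 to 34.8 CPM against 4.54 to 7.51 CPM, with 3 of 4 tested markers higher. Without Upk3b, the most abundant of them in Pa1-/- but not in Pa1F/F cells, the sums were 10.7 to 14.5 CPM against 4.21 to 7.07 CPM. Germ cell markers summed to no more than 10.3 CPM in any library (6.39 CPM without Tex14), with 2 of 4 tested markers lower and 1 higher. Of 4 tested endothelial markers, 2 were lower and 1 higher, and the sum ran from 116 to 122 CPM in Pa1F/F and from 63.7 to 101 CPM in Pa1-/- cells. Most of that was Cdh5, and the other endothelial markers summed to 7.81 to 13.2 CPM in Pa1F/F, to 8.68 and 8.11 CPM in Pa1-/- replicates 1 and 2 and to 35.3 CPM in replicate 3. Sums without the most abundant marker, here and below, were added after the data were seen. In bulk samples such as these, fewer cells of a type and less RNA per cell cannot be told apart. The part that these differences had in the receptor results below was not tested.

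Promoter sequence is shown for 3 receptors that passed the test, to show the letters searched for in the family: each held at least 1 match, and Nr6a1, which also passed and held matches, is given in words. The sequences are the 250 bases before the RefSeq transcript start (GRCm38.p6), printed 5′ to 3′ on the strand of the gene. Capitals mark AGGTCA or its reverse complement TGACCT, the hexamer that forms the core of many nuclear receptor response elements, in Thrb (chr14:17660710-17660959, plus strand) and Nr1h4 (chr10:89506659-89506908, minus strand). In Nr4a3 (chr4:48045055-48045304, plus strand) they mark TGACGT, the core letters of a cyclic AMP response element, which were chosen after that sequence had been read.
Thrb: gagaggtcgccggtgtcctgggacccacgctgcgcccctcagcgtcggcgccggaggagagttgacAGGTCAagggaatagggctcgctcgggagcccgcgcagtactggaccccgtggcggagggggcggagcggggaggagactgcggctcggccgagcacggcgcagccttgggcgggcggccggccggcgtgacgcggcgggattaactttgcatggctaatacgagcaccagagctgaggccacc
Nr1h4: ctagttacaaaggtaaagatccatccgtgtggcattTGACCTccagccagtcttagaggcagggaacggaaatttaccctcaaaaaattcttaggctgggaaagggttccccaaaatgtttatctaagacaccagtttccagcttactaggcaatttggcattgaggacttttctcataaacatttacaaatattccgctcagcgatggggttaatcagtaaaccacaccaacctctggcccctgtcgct
Nr4a3: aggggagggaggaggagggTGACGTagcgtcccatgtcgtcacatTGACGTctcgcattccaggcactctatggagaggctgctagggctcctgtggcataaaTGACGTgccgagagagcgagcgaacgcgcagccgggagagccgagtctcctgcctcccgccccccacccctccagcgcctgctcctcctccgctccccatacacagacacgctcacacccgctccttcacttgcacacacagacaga

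The hexamer stood 184 bases before the start in Thrb and 214 bases before it in Nr1h4. Nr6a1 held the hexamer 91 and 45 bases before 1 of its RefSeq starts, which lies 143173 bases from the gene start in the deposited table. Its other promoter, another Thrb promoter and the promoters of Esr1 and Vdr held no match to any of the letters searched for. The 3 TGACGT matches in Nr4a3 stood 231, 205 and 147 bases before the start. Among all 32851 promoters of this length, 50 held at least 3 matches to TGACGT on either strand. RefSeq promoters matched 36 of the 39 members, with 57 promoters in all. Of these, 9 (15.8%) from 8 members held AGGTCA on either strand, against 14% of all promoters. TGACGT was found in 2 (3.51%, Nr2c1 and Nr4a3), against 6.47%, and the AP-1 letters TGACTCA in 1 (1.75%, Esrrg), against 4.46%. None of these letter strings contains another. A match is only a match of letters, and the Nr1h4 start used by RefSeq lies 26927 bases from the gene start in the deposited table.

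The level of each receptor was first compared per length, as fragments scaled to exon length and library size (FPKM). In Pa1F/F cells the family spanned from 0 to 25.3 FPKM, with 21 members at 1 FPKM or more and 3 at 10 or more. Nr1h2, the ubiquitous oxysterol receptor LXRβ, was the highest at 25.3 ± 1.36 FPKM (SD, n = 3). Rara, the main retinoic acid receptor of the Sertoli cell, followed at 11.8 ± 0.274, and Thra, the thyroid hormone receptor α gene, at 11.3 ± 0.445. These neighbours lay close: the Pa1F/F libraries ran from 11.5 to 12.1 FPKM for Rara and from 11.0 to 11.8 for Thra. Nr3c1, the glucocorticoid receptor, stood at 8.64 ± 0.327 and Rxrb at 8.41 ± 0.521 FPKM, and the ranges of these genes overlapped.

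**Figure D1:**
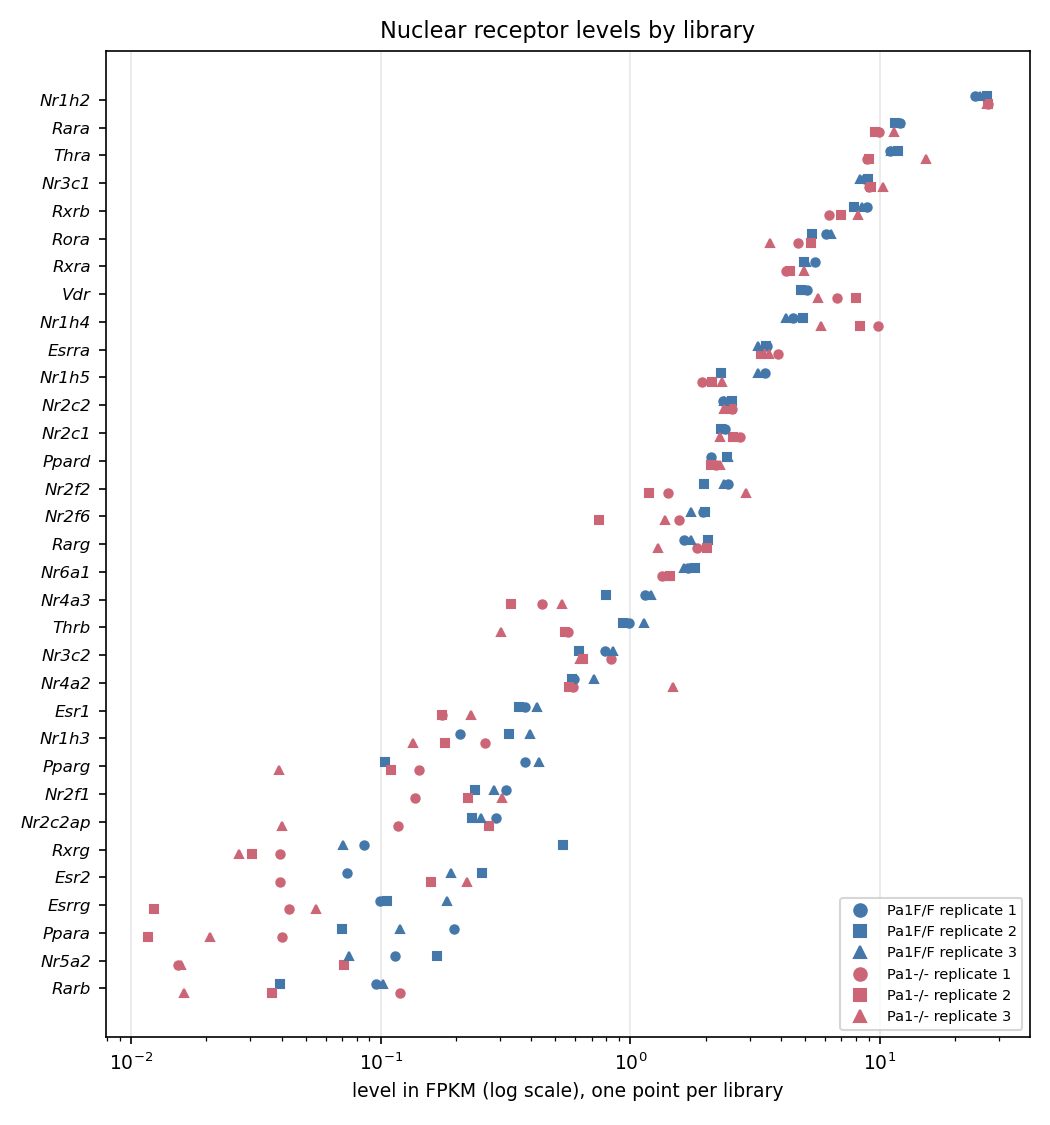
Level of each member with a Pa1F/F mean of at least 0.05 FPKM, 1 member not shown, one point per library, on a logarithmic FPKM axis, with Pa1F/F in blue above and Pa1-/- in red below. Nr1h2 leads at 25.3 FPKM in Pa1F/F cells, and the members below 0.3 FPKM are mostly those left untested.

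Of the 39 members, 28 passed the filter and were tested with edgeR's quasi-likelihood test, adjusted over all 14919 genes by the Benjamini-Hochberg method. At an adjusted p below 0.05, 2 were higher in Pa1-/- cells, Nr1h4 and Vdr, where 18.2% of all tested genes were higher. Another 4 were lower, Nr4a3, Thrb, Esr1 and Nr6a1, where 17.1% of all tested genes were lower. The remaining 22 did not pass. As shares of the 28 tested members, both were smaller than the shares over all tested genes. The counts moved with the libraries used, and so did the shares over all tested genes in the same fits. Without Pa1-/- replicate 3, 10 members were lower and 2 higher, where 21.2% and 21.9% of all tested genes were. Without Pa1F/F replicate 3, 2 were lower and 0 higher (11.5% and 11.5% of all tested genes), and without Pa1F/F replicate 1, 3 were lower and 0 higher (11.1% and 11.6%). A single member was higher without Pa1F/F replicate 2, Pa1-/- replicate 1 or Pa1-/- replicate 2, where 12.9% to 15.03% of all tested genes were higher. When the close libraries of each genotype were summed, leaving 2 against 2, no member passed in edgeR, where 4.43% of all tested genes were higher and 4.22% lower. With the added requirement of a log2 fold change of at least 1 in size, 2 members were lower, Nr4a3 and Thrb, against 6.56% of all tested genes. No member was higher by that rule, in edgeR or in DESeq2, against 5.44% of all tested genes; at an unadjusted p below 0.05, 2 members were higher and 9 lower in edgeR, against 23.5% and 22.5% of all tested genes. Genotypes did not overlap in normalized counts for 12 of the 28, compared with 52.4% of all tested genes. Across the 28 members the median was −0.20 on the log2 scale, with 20 below 0 and 8 above; across all 14919 genes it was 0.0020, with 49.8% below 0.

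**Figure D2:**
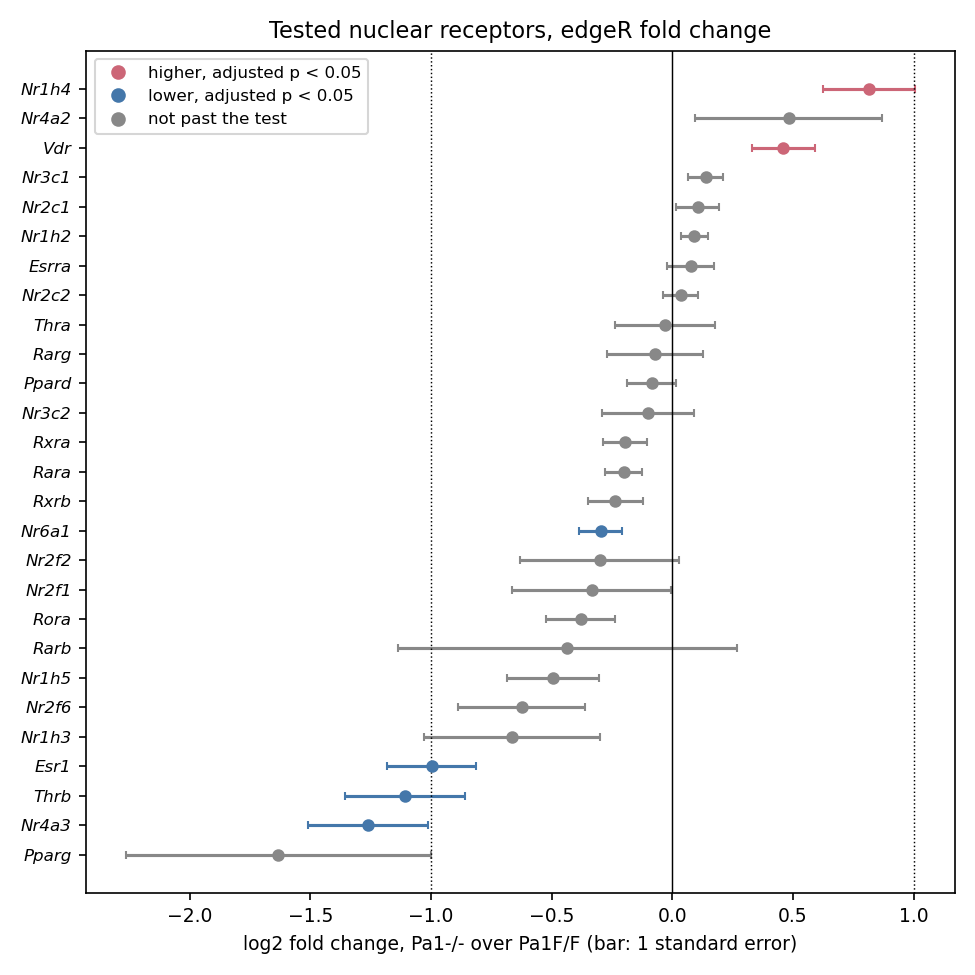
Log2 fold change, Pa1-/- over Pa1F/F, of the tested members, of which 1 is not shown, with 1 standard error from edgeR, where dotted lines mark a log2 fold change of 1 in either direction. The 6 colored receptors passed an adjusted p of 0.05, and Pparg, the lowest at −1.63, has a wide error and did not.

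Of the thyroid hormone receptors, Thrb passed the test and Thra did not, and the difference between their responses was not tested. Thrb (ENSMUSG00000021779, chr14:17660261-18038090), which encodes thyroid hormone receptor β, held 134, 126 and 153 normalized counts in Pa1F/F replicates 1, 2 and 3 and 76.1, 74.4 and 41.1 in the Pa1-/- replicates. All 3 Pa1-/- libraries lay below all Pa1F/F libraries, and Pa1-/- replicate 3 was the lowest. Its mean fell from 138 ± 14.0 to 63.9 ± 19.7 (SD, n = 3), a log2 fold change of −1.11 (SE 0.25, edgeR adjusted p = 0.014). Without Pa1F/F replicate 3 the adjusted p was 0.056 at a log2 fold change of −1.03. Thra, the far more abundant gene, held 1284, 1377 and 1290 normalized counts in Pa1F/F and 1033, 1054 and 1782 in Pa1-/- cells. Here Pa1-/- replicates 1 and 2 were below every Pa1F/F library and replicate 3 was above them, so the groups overlapped and the log2 fold change was −0.03 (SE 0.21, edgeR adjusted p = 0.925). Without Pa1-/- replicate 3 it was −0.33 with an adjusted p of 0.0038. Thra overlaps Nr1d1 on the opposite strand, and reads of the overlap cannot be assigned without strand.

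Among the 4 tested genes of a short list of thyroid hormone receptor targets, 2 were lower, against 17.1% of all tested genes, and the others did not pass. Dbp, a clock-controlled transcription factor gene, held 594, 446 and 607 normalized counts in Pa1F/F and 152, 157 and 74.1 in Pa1-/- cells (log2 fold change −2.11, SE 0.29, edgeR adjusted p = 0.0022). Hr, a corepressor gene, changed by −0.69 (SE 0.14, adjusted p = 0.011). Slc16a10 (MCT10), a transporter of thyroid hormone, fell as well, with a log2 fold change of −0.997 and an adjusted p of 0.0058, and was chosen for mention after its values were seen.

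Of the 2 NR4A members, inducible receptors without a known ligand, Nr4a3 passed the test and Nr4a2 did not. Nr4a3 (NOR1, ENSMUSG00000028341, chr4:48045153-48086447) held 101, 70.7 and 107 normalized counts in Pa1F/F and 39.0, 29.3 and 47.1 in Pa1-/- cells. Every Pa1-/- library was below every Pa1F/F library, and replicate 2 was the lowest of its group in both genotypes. With means of 92.7 ± 19.4 and 38.5 ± 8.91, it had the lowest fold change among members that passed, −1.26 on the log2 scale (SE 0.25, edgeR adjusted p = 0.0090). Nr4a2 (NURR1) held 71.6, 70.7 and 86.0 normalized counts in Pa1F/F and 71.3, 68.7 and 178 in Pa1-/- cells. Its log2 fold change of 0.48 (SE 0.39, adjusted p = 0.37) came with a single high library, and without Pa1-/- replicate 3 it was −0.12. The difference between the responses of Nr4a3 and Nr4a2 was not tested.

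Esr1 (ENSMUSG00000019768, chr10:4611593-5005614), which encodes estrogen receptor α, held 77.9, 73.6 and 87.1 normalized counts in Pa1F/F and 36.1, 36.0 and 47.1 in Pa1-/- cells. The groups did not overlap, and the libraries within each were close. Esr1 fell by 0.996 on the log2 scale (SE 0.19, edgeR adjusted p = 0.0071), just short of the fold rule in edgeR. Per length it was a minor member, at 0.387 ± 0.0334 FPKM in Pa1F/F and 0.193 ± 0.0309 in Pa1-/- cells. In the testis Esr1 is known from Leydig and peritubular myoid cells as well. The summed myoid markers ran from 222 to 283 CPM in Pa1F/F and from 827 to 1265 in Pa1-/- cells, with 1 of 5 tested markers, Acta2, higher. Acta2 made up most of that sum. The other 5 myoid markers summed to 49.4 to 70.1 CPM in Pa1F/F cells, to 24.9 and 19.9 CPM in Pa1-/- replicates 1 and 2, below every Pa1F/F library, and to 221 CPM in replicate 3. Esr2, the gene of estrogen receptor β, had at most 13 counts in a library and was not tested. Of 5 tested estrogen receptor targets, 2 were lower and 1 higher, against 17.1% and 18.2% of all tested genes. Greb1 and Igfbp4 were lower, by −2.88 (SE 0.15, adjusted p = 8.8e-05) and −2.56 (SE 0.16, adjusted p = 0.00016), and Celsr2 was higher, by 1.13 (SE 0.24, adjusted p = 0.011). For Greb1, a coregulator of estrogen receptor α, the Pa1F/F libraries held 559 to 686 normalized counts and the Pa1-/- libraries 75.5 to 100.2.

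Nr6a1 (germ cell nuclear factor, ENSMUSG00000063972, chr2:38723370-38927688), an orphan receptor, showed a small decline. Its normalized counts were 274, 291 and 263 in Pa1F/F and 216, 232 and 226 in Pa1-/- cells, without overlap. The log2 fold change was −0.30 (SE 0.09, edgeR adjusted p = 0.042). In 10 of 14 other settings the adjusted p lay between 0.051 and 0.197, among them the removal of any 1 of Pa1F/F replicates 1, 2 and 3 and Pa1-/- replicates 1 and 2. Nr6a1 overlaps 5 other annotated genes, including its antisense gene Nr6a1os. It is known from germ cells, whose low marker levels were given above.

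The 2 receptors that rose belong to the NR1 group and heterodimerize with RXR. Nr1h4 (ENSMUSG00000047638, chr10:89454234-89533585), which encodes the bile acid receptor FXRα, held 320, 350.5 and 299.96 normalized counts in Pa1F/F and 702, 594 and 413 in Pa1-/- cells. All Pa1-/- libraries were above all Pa1F/F libraries, and replicate 3 was the closest to them. The mean increased from 323 ± 25.5 to 569 ± 146, a log2 fold change of 0.82 (SE 0.19, edgeR adjusted p = 0.017). Per length this was 4.53 ± 0.356 FPKM in Pa1F/F and 7.97 ± 2.04 FPKM in Pa1-/- cells. Without Pa1F/F replicate 1 the adjusted p was 0.060, and without Pa1F/F replicate 3 it was 0.065. Vdr (ENSMUSG00000022479, chr15:97854425-97910630), the vitamin D receptor gene, held 429.5, 407 and 416 normalized counts in Pa1F/F and 567, 678 and 479 in Pa1-/- cells. The genotypes did not overlap, and the Pa1-/- libraries were far more spread than the Pa1F/F libraries. Vdr rose by 0.46 on the log2 scale (SE 0.13, edgeR adjusted p = 0.032). In 7 of 14 other settings its adjusted p was between 0.065 and 0.158, including the removal of any 1 library except Pa1-/- replicate 3. Of 2 tested vitamin D receptor targets 1 was lower, against 17.1% of all tested genes. It was Cd14, at −1.90 (SE 0.35, adjusted p = 0.0071), while the calcium channel gene Trpv6 did not pass (−0.10, SE 0.44, adjusted p = 0.873), and Cd14 is also one of the macrophage markers given above.

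**Figure D3:**
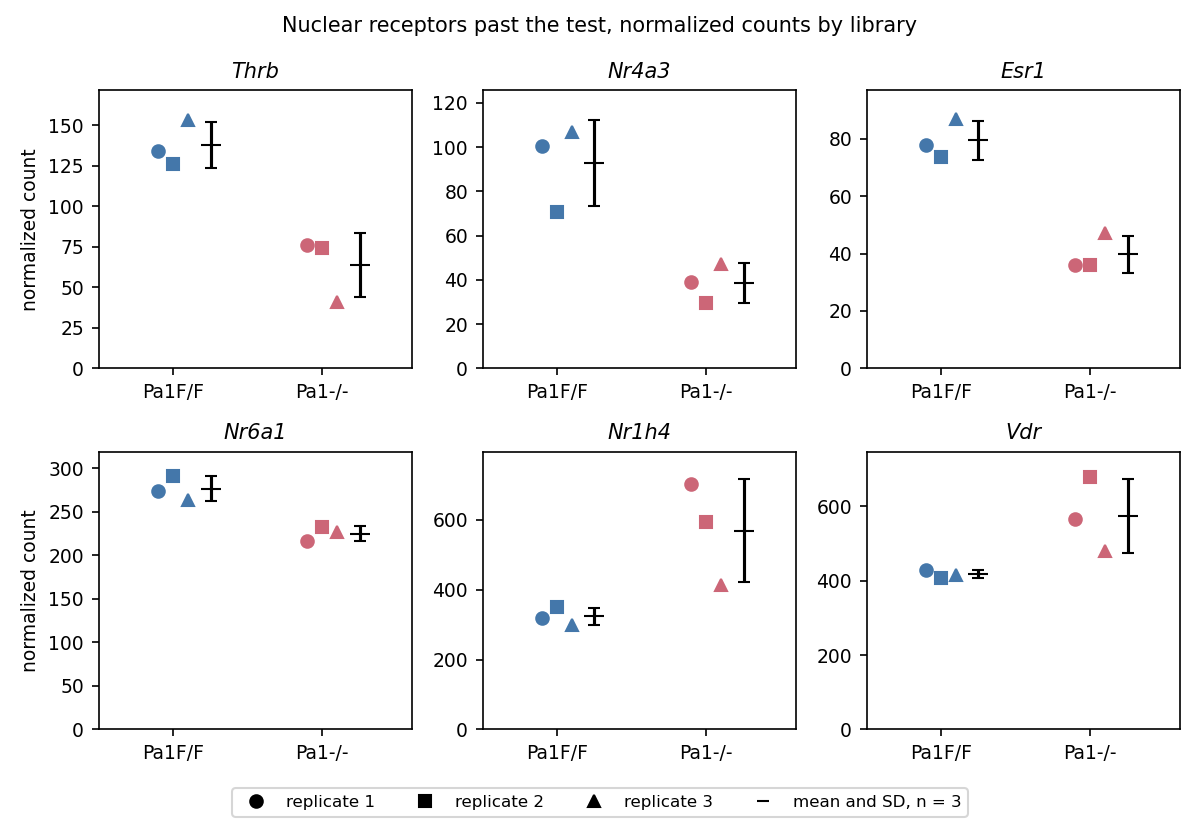
Normalized counts of the 6 receptors that passed the test, by library, on linear axes from 0, with the mean and SD (n = 3) beside each genotype. Thrb, Nr4a3, Esr1 and Nr6a1 lie lower and Nr1h4 and Vdr higher in Pa1-/- cells with no overlap, and Nr1h4 ranges from 413 to 702 among the Pa1-/- libraries.

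Neither the oxysterol receptors nor the second FXR passed. Nr1h2 held 1226, 1363 and 1280 normalized counts in Pa1F/F and 1378, 1377 and 1369 in Pa1-/- cells (log2 fold change 0.09, SE 0.06, edgeR adjusted p = 0.251). The Pa1-/- libraries lay just above the Pa1F/F libraries without overlap. Nr1h3 (LXRα), which is high in macrophages, was weakly detected, at 10.02 to 29.4 normalized counts over the 6 libraries (−0.66, SE 0.36, adjusted p = 0.200). Nr1h5, a gene for a second farnesoid receptor, had 101 to 152 normalized counts in Pa1F/F and 84.9 to 102 in Pa1-/- cells (−0.50, SE 0.19, adjusted p = 0.084), and without Pa1F/F replicate 2 its adjusted p was 0.024. Known LXR target genes moved in both directions, with 5 of 11 lower and 2 higher, where the shares over all tested genes were 17.1% and 18.2%. The 4 with the largest change were all lower: Apoe, the lipoprotein gene, at −2.14 (SE 0.17, adjusted p = 0.00031), the sterol transporter gene Abcg4 at −1.77 (SE 0.50, adjusted p = 0.033), the phospholipid transfer protein gene Pltp at −1.52 (SE 0.15, adjusted p = 0.00067) and the cholesterol exporter gene Abca1 at −0.87 (SE 0.06, adjusted p = 0.00018). Abca1 held 12942 to 13329 normalized counts in Pa1F/F and 7095 to 7293 in Pa1-/- cells. Apoe is also abundant in macrophages, for which 7 of 9 tested markers were lower.

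The 3 retinoic acid receptors did not pass the test. Rara held 1117, 1069 and 1106 normalized counts in Pa1F/F and 921, 889 and 1052 in Pa1-/- cells. These groups did not overlap, and Pa1-/- replicate 3 was nearest to the Pa1F/F libraries. The log2 fold change was −0.20 (SE 0.08, edgeR adjusted p = 0.084), and without Pa1-/- replicate 3 it was −0.28 with an adjusted p of 0.0079. Rarg overlapped, at 111, 139 and 120 normalized counts in Pa1F/F and 126, 139 and 88.2 in Pa1-/- cells (−0.07, SE 0.20, adjusted p = 0.803). Rarb, itself a retinoic acid-responsive gene, was barely present at 11.8, 4.84 and 12.6 normalized counts in Pa1F/F and 14.6, 4.51 and 2.004 in Pa1-/- cells (−0.43, SE 0.70, adjusted p = 0.665).

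Neither of the tested retinoid X receptors, their dimer partners, passed. Rxra held 555, 502 and 511 normalized counts in Pa1F/F and 426, 442 and 501 in Pa1-/- cells (−0.20, SE 0.09, edgeR adjusted p = 0.140). Rxrb held 565, 499.6 and 539 in Pa1F/F and 398, 445 and 519 in Pa1-/- cells (−0.24, SE 0.11, adjusted p = 0.151). In both genes Pa1-/- replicate 3 was the highest of its genotype. Without that library both were lower, at −0.27 (adjusted p = 0.034) and −0.34 (adjusted p = 0.022). Rxrg was below the filter, with 7, 41 and 5 counts in Pa1F/F and 3, 2 and 2 in Pa1-/- cells. Pa1F/F replicate 2 alone held most of its counts. Added up per length, the RARs amounted to 13.7 ± 0.0995 FPKM in Pa1F/F and 12.1 ± 0.521 in Pa1-/- cells, and the RXRs to 13.8 ± 0.583 and 11.7 ± 1.34 FPKM.

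Of 15 tested genes of ligand supply and clearance, 4 were higher and 6 lower, against 18.2% and 17.1% of all tested genes. Aldh1a2, which makes retinoic acid from retinaldehyde, rose from 558, 658 and 529.6 to 2762, 2757 and 3530 normalized counts, a log2 fold change of 2.37 (SE 0.13, edgeR adjusted p = 0.00011). Aldh1a2 is also known from mesothelial cells, of whose 4 tested markers 3 were higher, and their part was not tested. Crabp2, whose product carries retinoic acid to its receptors, fell by 1.36 (SE 0.33, adjusted p = 0.019) on the log2 scale. Hsd11b1, which regenerates active glucocorticoid and is high in Leydig cells, fell by 3.68 (SE 0.62, adjusted p = 0.0048), from 38.8 to 78.4 normalized counts in Pa1F/F to between 1.13 and 9.02 in Pa1-/- cells. In the list of 8 tested retinoic acid receptor targets, which shares genes such as Crabp2 with this list, 4 were lower and 2 higher (17.1% and 18.2% of all tested genes). Tgm2, a transglutaminase gene, fell by 1.35 (SE 0.08, adjusted p = 0.00012), and Rarres1 rose by 1.09 (SE 0.23, adjusted p = 0.010).

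Among the fatty acid receptors, Ppard was the most abundant and overlapped between genotypes, with 233, 269 and 273 normalized counts in Pa1F/F and 244, 232 and 254 in Pa1-/- cells (−0.09, SE 0.10, edgeR adjusted p = 0.548). Pparg held 39.0, 10.7 and 44.0 normalized counts in Pa1F/F and 14.6, 11.3 and 4.01 in Pa1-/- cells. Pa1F/F replicate 2 lay among the Pa1-/- libraries, and the estimate of −1.63 (SE 0.63, adjusted p = 0.086) did not pass. Without that library it was −2.04 with an adjusted p of 0.023. Ppara was below the filter, at 21, 7 and 11 counts in Pa1F/F and 4, 1 and 2 in Pa1-/- cells, and without any filter on low counts its adjusted p was 0.024. Of 14 tested PPAR target genes, 5 were lower and 2 higher, against 17.1% and 18.2% of all tested genes. Cd36, a fatty acid translocase gene, showed the same library order as Pparg in Pa1F/F cells, with 297, 98.8 and 332 normalized counts, and held 29.3, 25.9 and 11.0 in Pa1-/- cells (−3.45, SE 0.55, adjusted p = 0.0042). Fabp3 was lower at −1.49 (SE 0.37, adjusted p = 0.020), Angptl4 at −0.79 (SE 0.08, adjusted p = 0.00069) and Cpt1a, the gate of mitochondrial fatty acid oxidation, at −0.53 (SE 0.11, adjusted p = 0.010). Pparg and Cd36 are both expressed by macrophages, whose markers other than Mrc1 summed to 61.3 to 74.1 CPM in Pa1F/F and 11.3 to 13.7 CPM in Pa1-/- cells; their part in these results was not tested.

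The RORs bind DNA as monomers and drive clock genes. Rora held 1292, 1143 and 1350 normalized counts in Pa1F/F and 1004, 1131 and 774 in Pa1-/- cells, with no overlap but only a narrow gap (−0.38, SE 0.14, edgeR adjusted p = 0.079). Without Pa1-/- replicate 2 its adjusted p was 0.0496. Of 6 tested targets shared by RORs and REV-ERBs, 3 were lower (17.1% of all tested genes), each a clock gene: Bhlhe41 at −2.28 (SE 0.24, adjusted p = 0.00085), Npas2 at −1.32 (SE 0.36, adjusted p = 0.030) and Arntl at −0.50 (SE 0.11, adjusted p = 0.013). The other 3 had fold changes below 0 and did not pass.

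COUP-TFs are orphan receptors that mostly repress and are high in mesenchymal cells. Nr2f2 held 340, 273 and 329 normalized counts in Pa1F/F and 195, 164 and 404 in Pa1-/- cells. Pa1-/- replicates 1 and 2 were below every Pa1F/F library and replicate 3 above every one (−0.30, SE 0.33, edgeR adjusted p = 0.511). Without Pa1-/- replicate 3 the log2 fold change was −0.80 with an adjusted p of 0.0035. Interstitial stromal markers were also lower in Pa1-/- replicates 1 and 2 than in replicate 3, with a summed level of 2068 to 2495 CPM in Pa1F/F cells, 1258 and 1244 CPM in Pa1-/- replicates 1 and 2 and 2312 CPM in replicate 3, which is inside the Pa1F/F range. Without Col1a1, the most abundant marker, replicate 3 was below that range, at 879 CPM against 1001 to 1083 CPM. Of the 5 tested markers 2 were lower, Pdgfra and Col3a1, and both stayed below every Pa1F/F library in replicate 3. The myoid markers other than Acta2, given with Esr1, were above every Pa1F/F library in sum in replicate 3 and below in replicates 1 and 2. The part of these markers in the Nr2f2 result was not tested. Nr2f6 held 139, 140.4 and 124 normalized counts in Pa1F/F and 110.3, 52.9 and 97.2 in Pa1-/- cells (−0.62, SE 0.26, adjusted p = 0.108). Nr2f1 was low, with 27.2, 20.3 and 24.1 in Pa1F/F and 11.7, 19.2 and 26.1 in Pa1-/- cells (−0.33, SE 0.33, adjusted p = 0.470). The testicular receptors Nr2c1 and Nr2c2 had 434 to 518 and 556 to 604 normalized counts over the 6 libraries and log2 fold changes of 0.11 and 0.03.

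**Figure D4:**
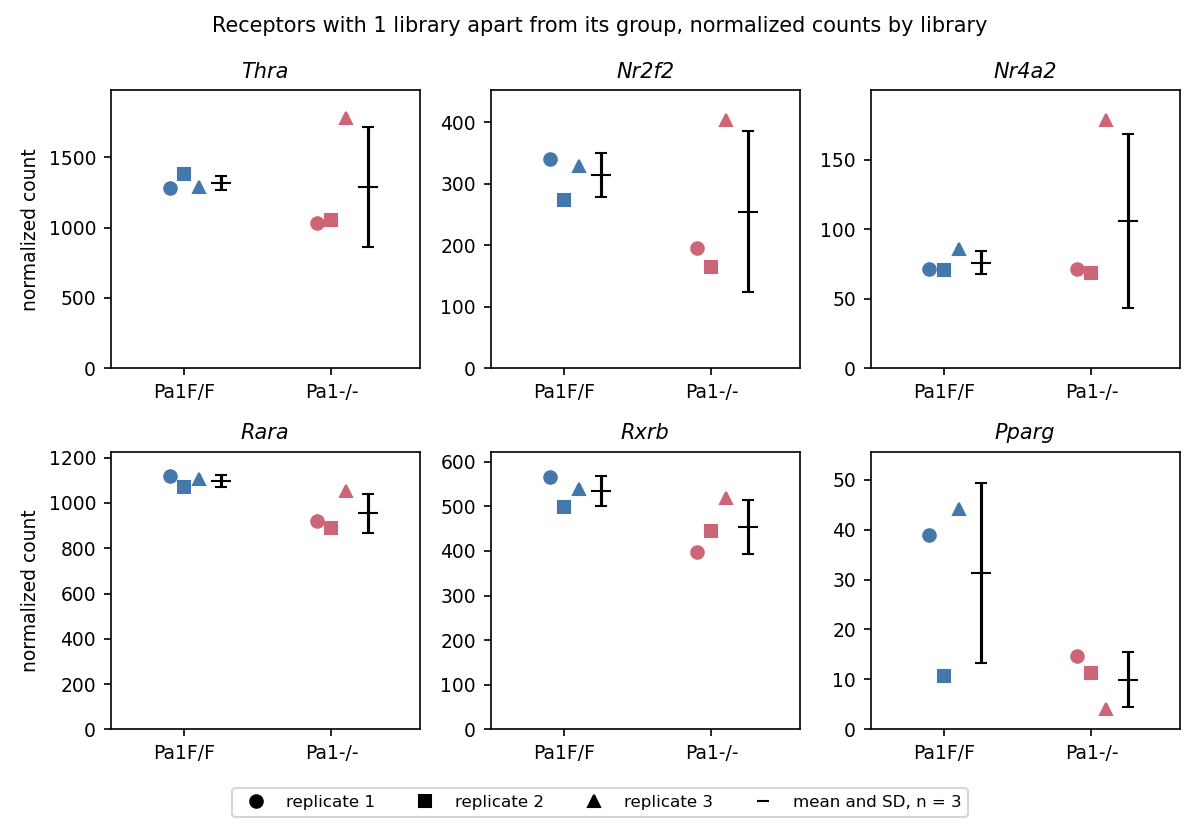
Normalized counts of 6 receptors that did not pass the test and in which 1 library stood away from its genotype, on linear axes from 0, with the mean and SD (n = 3); they were chosen after their values were seen. Pa1-/- replicate 3 is the highest of its genotype in the first 5 panels, as with 1782 against 1033 and 1054 for Thra, and Pa1F/F replicate 2 lies low for Pparg.

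The steroid receptors of the NR3C group differed little. Nr3c1 held 1014, 1034 and 961 normalized counts in Pa1F/F and 1047, 1067 and 1196 in Pa1-/- cells, without overlap (0.14, SE 0.07, edgeR adjusted p = 0.182). Its target list had 1 of 8 tested genes lower (17.1% of all tested genes), Fkbp5, the immunophilin that restrains the receptor, which held 4981, 5046 and 4985 normalized counts in Pa1F/F and 2168, 2005 and 2056 in Pa1-/- cells (−1.27, SE 0.05, adjusted p = 5.2e-05). The libraries of each genotype were close for Fkbp5, and none of the other 7 genes passed. Nr3c2, the mineralocorticoid receptor gene, held 99.7, 78.4 and 107 in Pa1F/F and 105, 81.1 and 79.2 in Pa1-/- cells (−0.10, SE 0.19, adjusted p = 0.716). Pgr, the progesterone receptor gene, had 1 count in Pa1F/F replicate 1 and none elsewhere.

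Esrra, an orphan receptor that drives mitochondrial genes, held 258, 257 and 239 normalized counts in Pa1F/F and 286, 244 and 265 in Pa1-/- cells (0.08, SE 0.10, edgeR adjusted p = 0.578), and the genotypes overlapped. Of 9 tested targets of this receptor group, 4 were higher and 1 lower, against 18.2% and 17.1% of all tested genes. The largest changes were in Cycs (cytochrome c) at −0.69 (SE 0.08, adjusted p = 0.0015), Idh3a at 0.64 (SE 0.05, adjusted p = 0.00033), Ndufb5 at 0.36 (SE 0.10, adjusted p = 0.037) and Sdhb at 0.22 (SE 0.06, adjusted p = 0.023). These encode enzymes or carriers of mitochondrial respiration.

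The 11 untested members were Esr2, Esrrb, Esrrg, Hnf4a, Nr2c2ap, Nr2e3, Nr5a2, Pgr, Ppara, Rorb and Rxrg. Their highest count in a single library was 41, and 4 of them (Hnf4a, Nr2e3, Pgr and Rorb) had at most 3 counts in every library. A level of 3 counts, taken as the floor here, corresponds to 0.185 to 0.227 CPM in these libraries, and no difference can be read below it. Esrrg had 10, 10 and 16 counts in Pa1F/F and 4, 1 and 5 in Pa1-/- cells, and Nr5a2 had 16, 22 and 9 against 2, 8 and 2. Together with Ppara and Rxrg these were the untested members whose genotypes did not overlap. With no filter, Ppara and Rxrg passed the test (adjusted p = 0.024 and 0.042), on these few counts.

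Nuclear receptors act through coregulators, and 11 of the 23 listed coactivators and corepressors were lower, where 17.1% of all tested genes were lower. No coregulator was higher by edgeR, DESeq2 or limma-voom at this threshold, and at an unadjusted p below 0.05 the edgeR counts were 1 higher and 11 lower, against 23.5% and 22.5% of all tested genes. Nr0b1 (DAX1) and Nr0b2 (SHP), which are receptors without a DNA-binding domain that repress other receptors, changed the most. Nr0b1 held 341, 212 and 406 normalized counts in Pa1F/F and 13.7, 24.8 and 4.01 in Pa1-/- cells. The highest Pa1-/- library was far below the lowest Pa1F/F library, a log2 fold change of −4.51 (SE 0.50, edgeR adjusted p = 0.0011). Nr0b2 fell by 1.03 on the log2 scale (SE 0.32, adjusted p = 0.044), with 60.7, 79.4 and 60.8 normalized counts in Pa1F/F and 26.4, 22.5 and 49.1 in Pa1-/- cells. Ncoa7, a coactivator of estrogen receptors, had a log2 fold change of −0.86 (SE 0.13, adjusted p = 0.0035) and Nsd1, a histone H3 methyltransferase that binds receptors, of −0.43 (SE 0.12, adjusted p = 0.035). The other 7 that passed, including the acetyltransferase genes Ep300 and Crebbp and the deacetylase gene Hdac3, changed by −0.39 to −0.21. The count depended on the libraries used: it was 3, 7 and 2 without Pa1F/F replicates 1, 2 and 3, and 3, 5 and 11 without Pa1-/- replicates 1, 2 and 3. In the same fits 11.1%, 14.0%, 11.5%, 11.8%, 11.7% and 21.2% of all tested genes were lower. With the close libraries of each genotype summed, 1 coregulator was lower, where 4.22% of all tested genes were. A fit with a term for replicate number gave 4 lower, where 12.6% of all tested genes were. Without Pa1-/- replicate 3, 1 coregulator, Ppargc1a, was also higher. Nr0b1 is also expressed in Leydig cells, of whose 8 markers 4 were tested and 3 lower, with Cyp17a1 and Insl3 at no more than 3 counts in any library.

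**Figure D5:**
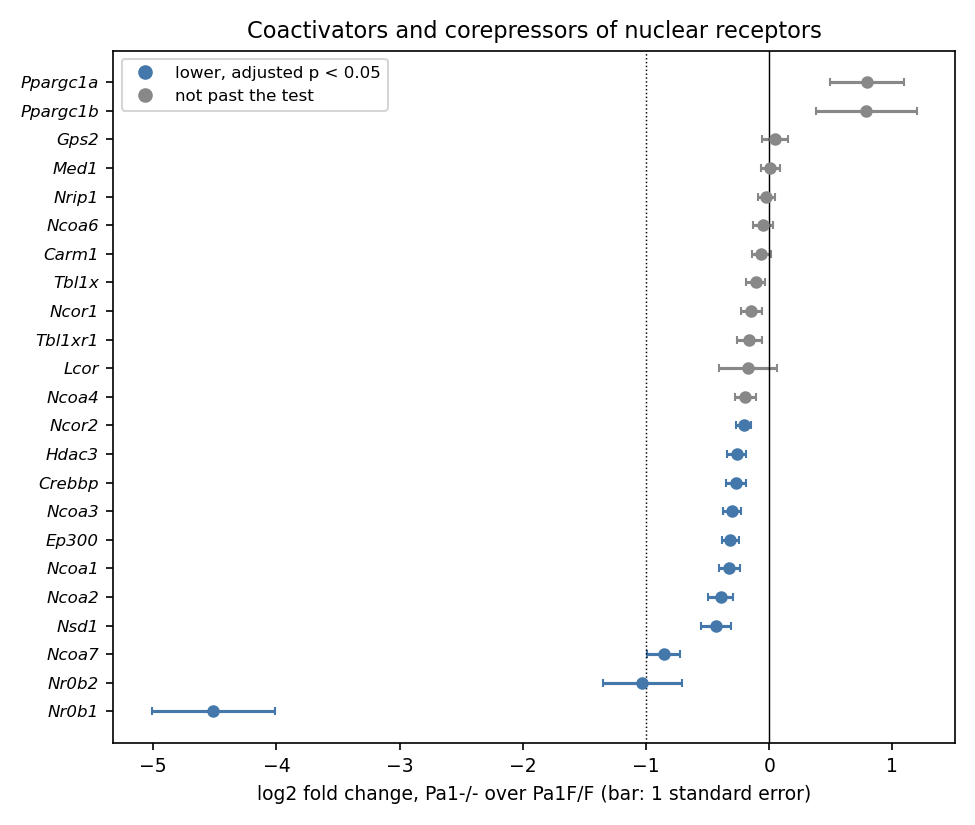
Log2 fold change, Pa1-/- over Pa1F/F, of the 23 coactivators and corepressors with 1 standard error from edgeR. The 11 in blue were lower at an adjusted p below 0.05, with Nr0b1 at −4.51, and the largest positive values, Ppargc1a and Ppargc1b, did not pass.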

How the data were processed

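The members and gene lists were chosen with earlier results of these data known. Total RNA was sequenced on an Illumina platform, and the authors aligned reads to GRCm38 with HISAT2 2.1.0 and deposited raw counts per gene from HTSeq 0.6.0 (tools per the submitters' notes and the methods); the strand setting was not given in the sources used here. The same table holds the authors' own means, fold changes and p-values, which were not used. Genes were kept by filterByExpr (minimum count 10, total 15), scaled by TMM and tested between genotypes with edgeR 4.0.16 (quasi-likelihood, R 4.3.3) in place of DEGseq, which the methods name. Normalized counts are counts divided by the TMM effective library size and multiplied by its mean. FPKM used the summed exon length of each gene in GENCODE vM39, whose gene models may differ from those used for counting. Library totals ran from 13203757 to 16231443. Named with values were all members that passed, the tested members of the thyroid hormone, retinoic acid, PPAR, ROR, RXR, COUP-TF, estrogen, estrogen-related and steroid receptor groups, the 5 highest by FPKM, and up to 4 passing genes per list; some of these genes are counted but not reported here. With 3 against 3 libraries, an exact permutation test of a single gene cannot go below p = 0.1, so none is given. The statistics were tested on simulated data. Alternatives used DESeq2 1.42.0, limma 3.58.1, other filters and scalings, and each library left out.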

Additional observations from a re-analysis of the deposited data

How the results depend on the processing

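Other scalings, filters and tests moved few receptor calls, while the choice of libraries moved many; the cause was not tested. Against 2 receptors higher and 4 lower, leaving out 1 library gave 0 to 2 higher and 2 to 10 lower, with the 10 reached without Pa1-/- replicate 3, where 21.2% of all tested genes were lower. With the fold rule it gave 0 to 1 higher (Nr1h4, without Pa1-/- replicate 3) and 1 to 5 lower. Shares of all tested genes by the fold rule were taken in the main fit only, at 5.44% higher and 6.56% lower. Whether these counts differ from the shares in their own fits therefore cannot be read. The close pairs of libraries (Pa1F/F replicates 1 and 3, Pa1-/- replicates 1 and 2) were also summed, which leaves 2 against 2 libraries. That fit gave 0 receptors in each direction, 0 by the fold rule and 1 coregulator lower, where 4.22% of all tested genes were lower. No filter on low counts gave 4 receptors lower by the fold rule and 7 coregulators lower. In that fit 8.53% of all tested genes were lower without the fold rule. The glmTreat test with a threshold of 1 (log2) gave 0 receptors. The coregulator alternatives were chosen after seeing the data, and leaving out 1 library gave 2 to 11 lower.

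The correlations of the deviations of same-numbered libraries were 0.108, −0.164 and −0.179, and not every library correlated best with its own number. With 1 library apart in each genotype, these values cannot show whether same-numbered samples were paired. The fit with a replicate block called 1 receptor higher, 3 lower and 4 coregulators lower, and 3802 genes in place of 5266. In it 12.8% of all tested genes were higher and 12.6% lower.

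Direction reversed only for receptors that had not passed the test. Leaving out 1 library, their log2 fold changes ran from −0.12 (without Pa1-/- replicate 3) to 0.73 (without Pa1-/- replicate 2) for Nr4a2, from −1.56 (without Pa1-/- replicate 1) to 0.017 (without Pa1-/- replicate 3) for Rarb, from −0.19 (without Pa1-/- replicate 2) to 0.10 (without Pa1-/- replicate 3) for Rarg and from −0.33 (without Pa1-/- replicate 3) to 0.11 (without Pa1-/- replicate 2) for Thra. Thra reached 0.10 with close pairs summed. Over all single-receptor alternatives, 350 kept their call and direction, 24 lost the call, 8 gained one and 8 reversed. Nr4a3 and Esr1 passed in 13 of 14 settings and Thrb in 12 of 14. The median log2 fold change over all tested genes stayed between −0.0047 and 0.012, so no scaling moved it by more than that. The 11 untested members had too few counts for the filter, and counting intervals would cover counting error only.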
